A study of Mus musculus with 16 samples.

Results

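The genes described here encode the core of transforming growth factor-β (TGFβ) signalling. They are the ligand Tgfb1, the latency protein gene Nrros, the receptor genes Tgfbr1 and Tgfbr2, the signal transducers Smad2, Smad3 and Smad4, the inhibitory Smad7, and the corepressors Ski and Skil. They were selected by symbol, with earlier results of these data known, and make up 10 of the 24411 genes in the deposited count table.

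RNA was sequenced from brain macrophages of C57BL/6J WT bone marrow (BM) chimeras, which had been irradiated with 950 cGy at an age of 6 weeks and carried congenic WT CD45.1 BM. Engrafted macrophages (CD45.1-low) and host microglia (CD45.2-low) were sorted as Ly6C/G-negative CD11b+ cells from the same brains, 10000 cells per sample. Mice 1 to 4 had received 2.5 mg/kg LPS, the bacterial endotoxin lipopolysaccharide, by peripheral injection 12 h before the sort. Mice 5 to 8 were controls without LPS challenge. Each of the 4 groups, engrafted control, host control, engrafted LPS and host LPS, therefore held 4 libraries. The study places the LPS challenge 9 months after transfer, whereas the labels give 3.5 or 9 months for all libraries. Host microglia had been irradiated and engrafted cells had not, so that origin and irradiation cannot be told apart. The CD45.1 allele marks cells of donor origin. A further limit of the model is that the cell type of the graft rests on a surface gate.

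TGFβ1 is secreted as a latent complex. In microglia and other macrophages, the product of Nrros tethers this complex to the cell surface, where it can be activated. Active ligand binds the type II receptor (Tgfbr2), which recruits and phosphorylates the type I receptor (Tgfbr1). The type I receptor in turn phosphorylates SMAD2 and SMAD3, which join SMAD4 and act in the nucleus. SMAD7 inhibits the type I receptor, and SKI and SKIL (SnoN) hold SMAD complexes in a repressed state. SMAD7 and SKIL are themselves induced by the pathway and close feedback loops. In the brain, TGFβ signalling is known to be required for the adult microglial expression program.

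The libraries held 395283 to 1203597 reads on genes (median 820588), and 3 reads, the detection limit used here, corresponded to 2.39 to 8.41 CPM (gene reads scaled to a common library size). The library of engrafted LPS mouse 4 was the shallowest. All 4 monocyte markers (Ly6c2, Ccr2, Chil3 and Plac8) were read in engrafted cells. They summed to 160 to 283 CPM in control and 869 to 1856 CPM in LPS mice, against at most 23.5 CPM in any host library. Ly6c2, Chil3 and Plac8 were higher in engrafted LPS than in engrafted control libraries. Ccr2 went the other way, at 84.6 to 227 CPM in engrafted control and 31.7 to 62.5 CPM in engrafted LPS libraries. The perivascular macrophage markers Mrc1, Cd163, Lyve1 and Ms4a7 summed to 941 to 1032 CPM in engrafted control and 677 to 926 CPM in engrafted LPS libraries. They summed to at most 31.7 CPM in host libraries. Most of the engrafted sum came from Mrc1 and Ms4a7. Lyve1 was at 0 in host libraries and near the detection limit in engrafted ones, at 1.64 to 5.06 CPM in control and at most 1.30 CPM in LPS mice. The 5 neutrophil markers summed to 153 to 768 CPM in engrafted control cells, nearly all from S100a8 and S100a9, with Ly6g at no more than 1.01 CPM and Mpo at 0. In engrafted LPS cells they summed to 22.0 to 295 CPM, and host libraries reached at most 15.95 CPM. The 7 microglia and macrophage markers summed to 11558 to 12599 CPM in engrafted control and 15763 to 18260 CPM in host control libraries. After LPS they summed to 4994 to 5819 CPM in engrafted and 7359 to 9464 CPM in host libraries. Of these markers, Itgam was higher after LPS. It was at 261 to 331 CPM in engrafted control and 865 to 1145 CPM in engrafted LPS libraries. In host libraries it was at 615 to 755 CPM in control and 999 to 1100 CPM in LPS mice. The 5 astrocyte markers summed to at most 25.3 CPM in engrafted and to 146 to 253 CPM in host libraries, nearly all from Slc1a3, while Gfap did not exceed 1.46 CPM in any library. These marker sums moved with the population differences and LPS changes given below, though single markers did not all do so. Their part in these changes was not tested. The 2 red blood cell markers, Hbb-b1 and Hba-a1, varied widely within every group. They summed to 7.05 to 2867 CPM in engrafted control and 2.60 to 4284 CPM in engrafted LPS libraries. In host libraries they summed to 1.60 to 509.6 CPM in control and 2.99 to 552 CPM in LPS mice. Their part was not tested either. Fewer cells of one type and less RNA per cell cannot be told apart in such samples.

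The 250 bases upstream of the start of each gene model were read from the mm9 genome (NCBIM37), and some of these windows are printed. Smad7, also a feedback gene of the pathway, is not printed, and its match is given below. Tgfbr2 is shown because its response to LPS differed between the populations, Smad3 because it showed the widest difference between the populations, and Skil because it is a feedback gene of the pathway. Capitals mark the SMAD box CAGAC and the GC box GGGCGG on either strand, and the sequences run 5′ to 3′ toward the gene. The windows are chr9:116084482-116084731 (minus strand) for Tgfbr2, chr9:63605802-63606051 (minus strand) for Smad3 and chr3:30993730-30993979 (plus strand) for Skil.
Tgfbr2: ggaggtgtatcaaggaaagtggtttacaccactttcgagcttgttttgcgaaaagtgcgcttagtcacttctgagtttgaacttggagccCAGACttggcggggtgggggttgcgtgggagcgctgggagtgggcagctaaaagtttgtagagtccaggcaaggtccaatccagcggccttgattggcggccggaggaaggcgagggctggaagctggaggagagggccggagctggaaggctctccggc
Smad3: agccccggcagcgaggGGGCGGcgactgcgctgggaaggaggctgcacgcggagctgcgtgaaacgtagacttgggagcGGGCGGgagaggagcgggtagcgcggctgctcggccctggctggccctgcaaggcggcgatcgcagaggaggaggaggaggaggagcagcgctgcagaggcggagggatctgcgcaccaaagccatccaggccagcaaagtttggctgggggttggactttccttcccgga
Skil: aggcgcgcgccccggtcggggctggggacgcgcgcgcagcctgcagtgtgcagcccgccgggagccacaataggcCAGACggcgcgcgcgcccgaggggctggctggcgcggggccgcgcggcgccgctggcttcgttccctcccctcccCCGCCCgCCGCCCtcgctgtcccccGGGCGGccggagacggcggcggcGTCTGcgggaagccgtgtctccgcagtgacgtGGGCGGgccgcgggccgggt
The Tgfbr2 window held 1 SMAD box and no GC box, with 58.4% G and C. The Smad3 window held 2 GC boxes and no SMAD box, with 69.2% G and C. The Skil window held 2 SMAD boxes and 4 GC boxes and reached 82.0% G and C, against a median of 55.2% over 24338 promoters of the table. SMAD boxes were found in 2 of the 10 members and in 40.8% of all promoters, and GC boxes in 7 of the 10 members and in 41.1% of all promoters. CCAAT was found in 3 members (35.1% of all promoters) and TATAAA in none (12% of all promoters). The palindrome GTCTAGAC, a strong SMAD3 and SMAD4 binding element, occurred in 0.16% of all promoters, and the Smad7 window was the only member with it (the palindrome does not contain CAGAC). These are matches of letters, all counted on both strands, and no binding was measured here.

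In unchallenged chimeras, the TGFβ genes ranged from a 2.27-fold lower level in engrafted cells (Smad3) to little difference. Of the 10 members, all of which passed the filter on low counts, 3 were lower in engrafted than in host cells (Smad3, Smad7 and Ski) and 0 were higher at an adjusted p below 0.05 (quasi-likelihood test of edgeR, adjusted by the Benjamini-Hochberg method). Over all 8042 genes tested, 27.3% passed in either direction, 13.6% were higher and 13.7% were lower. The share of members was thus near that of all genes. The absolute log2 difference had a median of 0.27 over the members and 0.32 over all genes tested. At an unadjusted p below 0.05, 5 members were lower and 0 higher, but no share of all genes was computed at that threshold. DESeq2 and limma-trend also called 0 members higher.

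After LPS, 2 members were lower in engrafted than in host cells (Tgfbr2 and Smad7) and 0 were higher. DESeq2, limma-trend and an unadjusted p below 0.05 also called 0 members higher. Over all 7843 genes tested, 17.1% passed in either direction, 9.52% were higher and 7.62% were lower. With all 16 libraries in one fit, or with library totals as the scale, Tgfbr1, Smad3 and Skil were also called lower, and DESeq2 added Tgfbr1. At an unadjusted p below 0.05, 6 members were lower. No share of all genes was computed at that threshold, for DESeq2 or for the fit over 16 libraries. Library totals called 890 of all 7843 genes lower, against 598 with TMM. With library totals 40.2% of all called genes were higher in engrafted cells, against 55.5% with TMM. The 4 engrafted libraries lay below all 4 host libraries for 5 members, Tgfbr1, Tgfbr2, Smad3, Smad7 and Skil. Such separation occurred in 20.6% of all genes tested, 10.5% toward lower values. In control mice only Smad3 separated, against 26.6% of all genes, 15.3% toward lower values. A change over 2-fold was called for 1 member in control mice (Smad3) and 1 in LPS mice (Tgfbr2), against 11% and 11.1% of all genes.

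**Figure D1:**
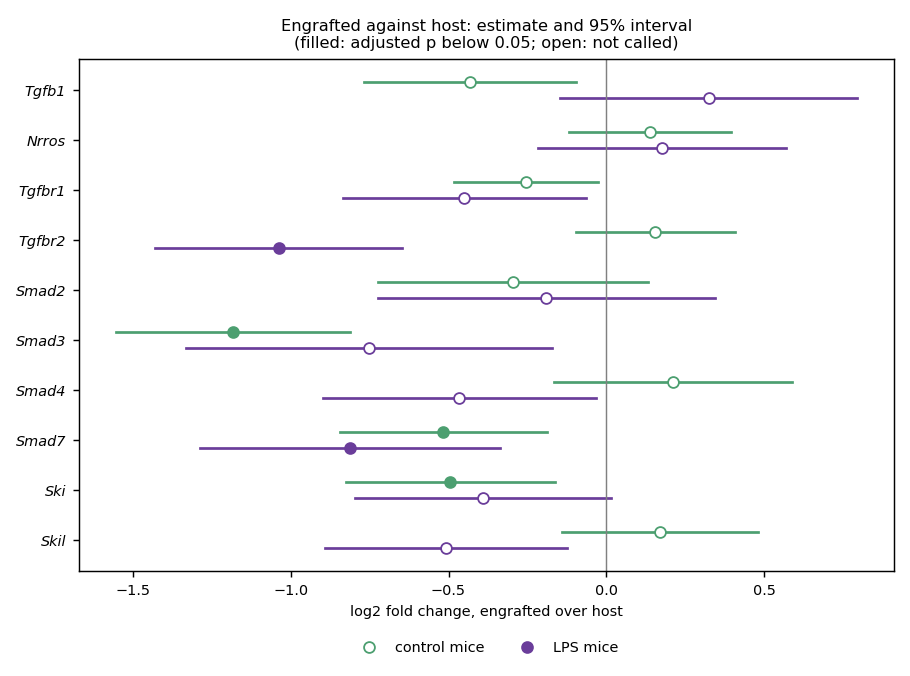
Log2 fold change of each TGFβ gene in engrafted over host cells (x axis) in control and LPS mice, with 95% intervals from edgeR. Filled points passed an adjusted p below 0.05. Smad3, Smad7 and Ski are filled in control mice and Tgfbr2 and Smad7 in LPS mice, and all filled points lie left of 0.

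LPS lowered more of these genes than it raised in both populations. In engrafted cells 6 members fell (Tgfbr2, Tgfbr1, Smad7, Smad3, Tgfb1 and Skil) and 0 rose, likewise with DESeq2, limma-trend and an unadjusted p. Over all 7609 genes tested 38.7% passed, 19.4% rose and 19.3% fell. In host microglia 6 members fell (Smad3, Tgfb1, Tgfbr1, Tgfbr2, Smad7 and Nrros) and Smad4 rose, where 39.7% of 8238 genes passed, 20.5% fell and 19.2% rose. The change was over 2-fold for 4 members in engrafted and 3 members in host cells, against 21.5% and 18% of all genes. The LPS libraries lay below all control libraries for 6 members in engrafted cells, where 35% of all genes separated and 16.7% did so toward lower values. In host cells 7 members separated (35.7% of all genes), 6 of them toward lower values (18.6%). The median log2 change of the members was -0.74 in engrafted and -0.65 in host cells, beside -0.01 and 0.01 over all genes tested. The control groups are part of both the population and the LPS comparisons, so that these lists are not independent of each other.

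**Figure D2:**
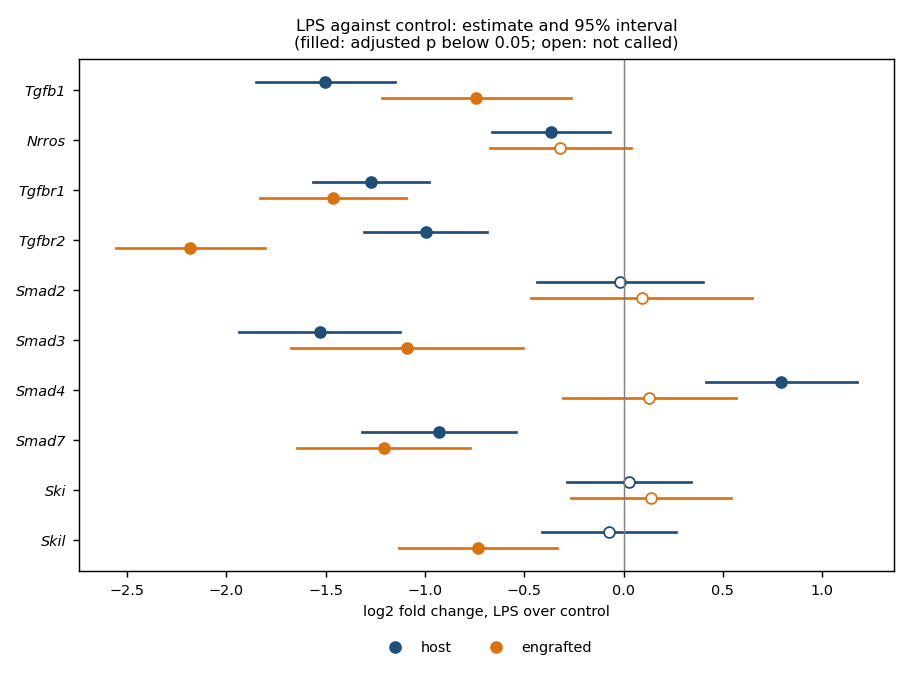
Log2 fold change after LPS (x axis) of each TGFβ gene in host and engrafted cells, with 95% intervals from edgeR. Filled points passed an adjusted p below 0.05. The intervals of the 2 populations do not overlap for Tgfbr2, which lies at -0.997 in host and -2.18 in engrafted cells.

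The difference between the LPS responses was tested as the interaction of population and challenge over all 16 libraries. It passed for 1 member, Tgfbr2, with a difference over 2-fold and a wider fall in engrafted cells. Over 8847 genes tested 5.88% passed, 2.97% higher and 2.9% lower, and 4.95% passed over 2-fold. At an unadjusted p below 0.05, 3 further members differed (Tgfb1, Smad4 and Skil), none of which held after adjustment. The share of all genes at that threshold was not computed.

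The ligand gene Tgfb1 (NM_011577, chromosome 7, 26472021 to 26490096 of mm9) was counted in host control microglia at 736, 566, 525 and 426 CPM (mice 5 to 8). Engrafted control cells of the same mice had 327, 361, 541 and 382 CPM. The groups overlapped, since mouse 7 had nearly equal levels in both populations while mouse 5 had the widest gap. The log2 fold change of engrafted over host cells was -0.43 (standard error 0.16, edgeR adjusted p = 0.0505), just outside the threshold. With the mouse as a block in the fit the difference passed (adjusted p = 0.0280). It also passed with library totals, limma-trend, no filter or a minimum of 10 reads in every library. Leaving out the engrafted library of mouse 7 (-0.60, adjusted p = 0.00872) or the host library of mouse 8 (-0.55, adjusted p = 0.0126) had the same effect. It was weaker without the host library of mouse 5 (-0.28, adjusted p = 0.234), and with all 16 libraries in one fit its adjusted p was 0.141.

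After LPS, Tgfb1 was at 198, 225, 203 and 174 CPM in host cells (mice 1 to 4), below every host control library. Engrafted LPS cells had 263, 222, 347 and 149 CPM, which spread on both sides of the host values. The ligand fell by 1.502 on the log2 scale in host microglia (standard error 0.17, edgeR adjusted p = 3.07e-07) and by 0.74 in engrafted cells (standard error 0.23, adjusted p = 0.0142). The fall in engrafted cells missed the threshold without control mouse 7 (log2 fold change -0.56, adjusted p = 0.0806). The interaction of 0.75 (95% interval 0.14 to 1.36) had an adjusted p of 0.144 in edgeR, and 0.0341 without engrafted LPS mouse 4.

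Nrros (NM_146069, chromosome 16, 32142911 to 32165562), which anchors latent TGFβ1 on myeloid cells, was the steadiest member beside Smad2. Its levels spanned 206 to 357 CPM over all 16 libraries, and the highest group mean was 1.35 times the lowest. Both control groups lay above both LPS groups, with no overlap. Host cells had 315 ± 12.4 CPM in control and 246 ± 34.5 CPM in LPS mice (SD, n = 4), a log2 fold change of -0.37 (edgeR adjusted p = 0.0455). The call was lost when any of 7 of the 8 libraries was left out (adjusted p up to 0.177). It was also lost with RLE size factors, library totals, DESeq2, no filter or all 16 libraries in one fit (adjusted p up to 0.117). In engrafted cells the means were 333 ± 29.0 and 275 ± 16.6 CPM, and the change of -0.32 on the log2 scale was not called (adjusted p = 0.148). The population difference was 0.14 in control and 0.18 in LPS mice on the log2 scale, with intervals of -0.12 to 0.40 and -0.22 to 0.57.

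**Figure D3:**
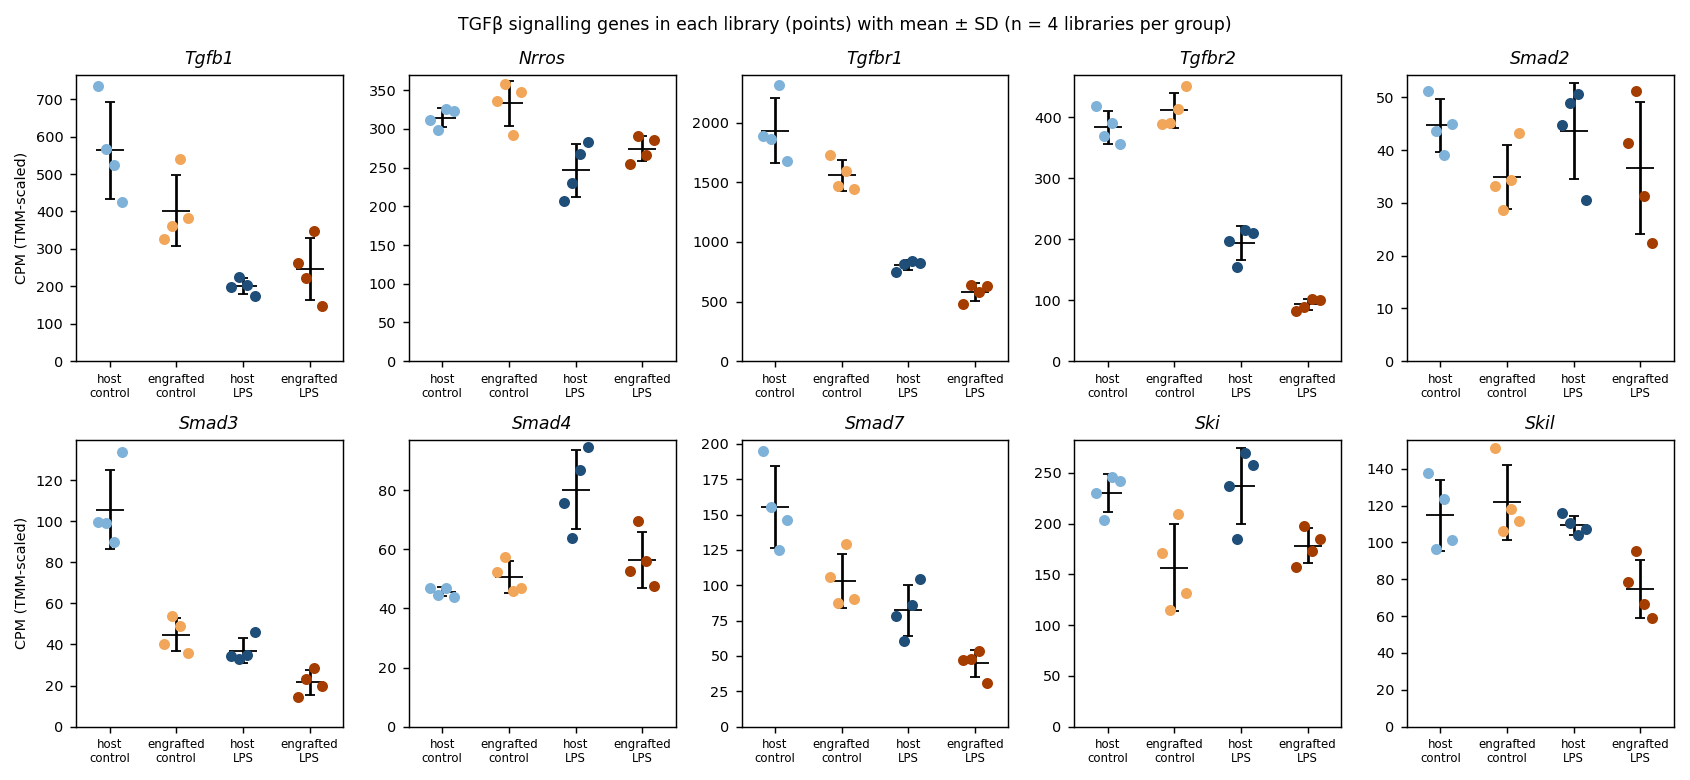
Level of each TGFβ gene in CPM (y axes start at 0 and differ between panels) in the 16 libraries, with points for libraries and bars for mean ± SD of 4 libraries. Tgfbr1 and Tgfbr2 are high in all control libraries and low in all LPS libraries, Smad3 is highest in host control cells, and Smad4 is highest in host LPS cells.

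The type II receptor gene Tgfbr2 (NM_009371, chromosome 9, 115996813 to 116084481) did not separate the populations in control mice. Host cells had 419, 370, 391 and 356 CPM (mice 5 to 8), and engrafted cells had 389.8, 391, 413 and 452 CPM. The ranges overlapped in part, and the log2 fold change was 0.15 (95% interval -0.10 to 0.41, edgeR adjusted p = 0.391).

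After LPS the host libraries fell to 197, 155, 215 and 210 CPM (mice 1 to 4), and the engrafted libraries fell further, to 82.8, 89.1, 101 and 101 CPM. Every LPS library was below every control library, and every engrafted LPS library was below every host LPS library. Tgfbr2 fell by 2.18 on the log2 scale in engrafted cells (standard error 0.18, edgeR adjusted p = 1.17e-08), to 22.7% of the control mean. In host microglia it fell by 0.997 (standard error 0.15, adjusted p = 1.33e-05), to 50.6% of the control mean. The 2 responses differed by -1.20 on the log2 scale (standard error 0.23, 95% interval -1.66 to -0.73, adjusted p = 0.00138). Under all alternatives this difference stayed between -1.30 and -1.12, and its adjusted p did not exceed 0.00538. After LPS the populations differed by -1.04 (adjusted p = 0.000523), and within each LPS mouse the engrafted library was lower by 0.78 to 1.23 on the log2 scale. In control mice the engrafted library was lower in 1 of 4 mice.

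The type I receptor gene Tgfbr1 (NM_009370, chromosome 4, 47366094 to 47427796) fell with LPS in both populations. Host microglia had 1889, 1861, 2312 and 1676 CPM in control mice and 751, 812, 841 and 825 CPM in LPS mice. Engrafted cells had 1732, 1473, 1593 and 1442 CPM in control mice and 479.9, 639, 578 and 628 CPM in LPS mice. No LPS library reached the lowest control library of either population. The log2 fold change with LPS was -1.27 in host (standard error 0.14, edgeR adjusted p = 2.69e-07) and -1.46 in engrafted cells (standard error 0.18, adjusted p = 1.85e-06). The difference between these responses was -0.20 (95% interval -0.63 to 0.23, adjusted p = 0.663). A small population difference ran in one direction in every animal, since the engrafted library was lower than the host library in 8 of 8 mice, by 0.13 to 0.64 on the log2 scale. It did not pass in either challenge in edgeR (adjusted p = 0.0935 in control and 0.109 in LPS mice). It passed in control mice with library totals (adjusted p = 0.0312), without the filter (0.0398) and without host mouse 8 (0.0334). In LPS mice it passed with DESeq2 (adjusted p = 0.0438), library totals (0.0209), all 16 libraries in one fit (0.0259) and without engrafted mouse 4 (0.0484).

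The receptors were also compared within each library, as the share of Tgfbr2 reads among the reads of Tgfbr1 and Tgfbr2, which does not depend on how libraries are scaled. Engrafted cells had a share of 21.0% ± 2.25 in control and 13.9% ± 1.23 in LPS mice (SD, n = 4). Host cells had 16.7% ± 1.62 in control and 19.4% ± 2.25 in LPS mice. The host change of 2.68 points had an exact permutation p of 0.114. Engrafted libraries lay above host libraries in all control mice and below them in all LPS mice. Each of these 2 differences, and the fall in engrafted cells, had an exact permutation p of 0.0286 (two-sided), the smallest that 4 against 4 libraries can give, and 0.0571 after adjustment over the 16 share tests made. The engrafted minus host difference within a mouse was 4.27 ± 2.83 percentage points in control and -5.43 ± 1.19 points in LPS mice. This contrast gave an exact permutation p of 0.0286, or 0.0571 after adjustment over 4 shares, and was added after the data had been seen.

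**Figure D4:**
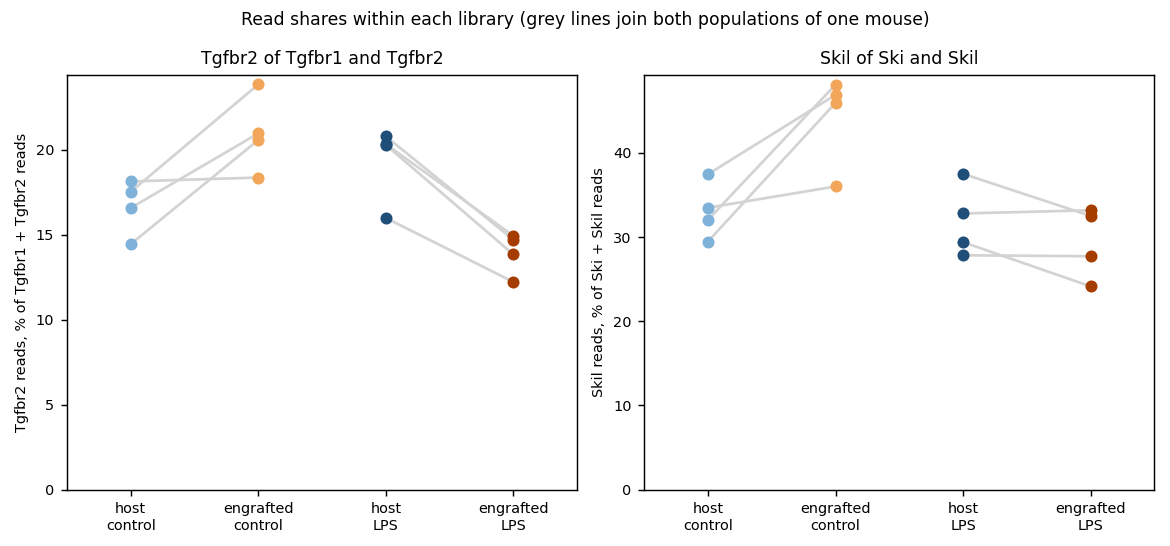
Share of Tgfbr2 reads among receptor reads (left) and of Skil reads among Ski and Skil reads (right), in percent, in each library. Grey lines join both populations of one mouse. The lines of the left panel rise from host to engrafted cells in the 4 control mice and fall in the 4 LPS mice.

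Among the receptor-regulated SMADs, Smad3 and Smad2 behaved differently. Smad3 (NM_016769, chromosome 9, 63494574 to 63605801) was at 99.5, 99.1, 90.1 and 134 CPM in host control microglia (mice 5 to 8). Engrafted cells of the same mice were at 40.3, 53.9, 49.2 and 36.0 CPM. All engrafted libraries were below all host libraries, and the engrafted mean was 42.5% of the host mean. The engrafted library was lower in 8 of 8 mice when LPS mice were included, by 0.27 to 1.82 on the log2 scale. Of the alternatives tried, none moved the control difference outside -1.28 to -1.05.

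LPS lowered Smad3 to 34.4, 32.9, 35.0 and 45.9 CPM in host cells (mice 1 to 4). Engrafted LPS cells had 14.5, 23.2, 28.6 and 19.6 CPM, on 7 to 22 reads per library. Host LPS libraries came down to the level of unchallenged engrafted cells, with which they overlapped. The fall was 1.53 on the log2 scale in host (standard error 0.20, edgeR adjusted p = 1.84e-06) and 1.09 in engrafted cells (standard error 0.28, adjusted p = 0.00426). The populations still did not overlap after LPS, but the difference of -0.75 missed the threshold (standard error 0.27, adjusted p = 0.0722). The interaction was 0.43 (95% interval -0.25 to 1.10, adjusted p = 0.524).

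Smad2 (NM_010754, chromosome 18, 76401355 to 76471401) was called in none of the 5 comparisons in edgeR, and none had an unadjusted p below 0.05. The group means lay between 34.9 and 44.7 CPM, and the libraries between 22.4 and 51.2 CPM. At 8 to 49 reads per library, the intervals were wide. The LPS change was between -0.44 and 0.40 on the log2 scale in host and between -0.47 and 0.65 in engrafted cells. A change smaller than these limits was not detectable at this depth.

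As a share of the reads of Smad2 and Smad3, Smad3 made up 66.0% to 74.9% in the host control libraries. The mean share was 56.1% ± 8.31 in engrafted control, 46.1% ± 9.34 in host LPS and 37.9% ± 10.99 in engrafted LPS cells (SD, n = 4). The fall with LPS was 23.9 points in host cells (exact permutation p = 0.0286) and 18.2 points in engrafted cells (exact permutation p = 0.0857). The population difference in control mice was -13.9 points (exact permutation p = 0.0286). None of the 16 share tests passed after adjustment (lowest 0.0571), and 8 had an unadjusted exact p of 0.0286.

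The genes with the pattern most like that of Smad3 over the 16 libraries were Smap2, Map4k2, Mfng, Ptprs and Ccni. Likeness was the root mean square difference of gene-centred log2 CPM, which was 0.20 to 0.28 for these 5 genes, against a median of 0.93 over 6785 genes. Map4k2, for example, had 108 CPM in host control, 47.1 in engrafted control, 38.0 in host LPS and 23.6 in engrafted LPS cells.

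The common mediator Smad4 (NM_008540, chromosome 18, 73798667 to 73863395) was the only member that rose with LPS. Host control libraries lay close together, at 46.8, 44.7, 47.1 and 43.9 CPM (mice 5 to 8). Host LPS libraries had 75.7, 63.8, 86.9 and 94.6 CPM, all above the control libraries. The rise was 0.79 on the log2 scale (standard error 0.18, edgeR adjusted p = 0.00148) and kept its call under all alternatives (adjusted p up to 0.00691). Engrafted cells had 52.4, 57.3, 45.9 and 46.8 CPM in control and 52.6, 69.5, 55.9 and 47.7 CPM in LPS mice, which overlapped. Their change was 0.13 (95% interval -0.31 to 0.57, adjusted p = 0.653). The difference between the 2 responses, -0.67 on the log2 scale (95% interval -1.21 to -0.14), had an unadjusted p of 0.0157 and an adjusted p of 0.136, and is therefore not shown.

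The inhibitory Smad7 (NM_001042660, chromosome 18, 75527019 to 75555588) was the only member called in both population comparisons and in both LPS comparisons. In control mice, host cells had 195, 155, 125 and 146 CPM, and engrafted cells had 106, 87.7, 129 and 90.0 CPM. Mouse 7 had nearly equal levels, and the other 3 mice had lower levels in engrafted cells. The log2 fold change was -0.52 (standard error 0.16, edgeR adjusted p = 0.0164). It missed the threshold without host mouse 5, engrafted mouse 6 or engrafted mouse 8 (adjusted p of 0.0618, 0.0614 and 0.0502).

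After LPS, Smad7 was at 78.0, 60.8, 85.7 and 104 CPM in host and at 47.0, 47.6, 53.3 and 30.8 CPM in engrafted cells (mice 1 to 4). The groups did not overlap, and the log2 fold change was -0.81 (standard error 0.22, edgeR adjusted p = 0.0171). Without host mouse 4 it was -0.67 (adjusted p = 0.0613). Smad7 fell with LPS by 0.93 in host (adjusted p = 0.000371) and by 1.21 in engrafted cells (adjusted p = 0.000115), and these falls differed by -0.29 (95% interval -0.86 to 0.29, adjusted p = 0.633). As a share of the reads of Smad2, Smad3, Smad4 and Smad7, it made up 44.0% ± 4.43 of host control and 44.0% ± 4.97 of engrafted control reads. The share was 33.5% ± 3.44 in host LPS and 28.0% ± 3.33 in engrafted LPS cells.

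The corepressor genes Ski and Skil showed unlike patterns. Ski (NM_011385, chromosome 4, 154528184 to 154596644) was lower in engrafted control cells, at 171, 115, 210 and 131 CPM against 230, 204, 246 and 242 CPM in host cells. Engrafted mouse 7 reached the range of the host libraries. The log2 fold change was -0.49 (standard error 0.16, edgeR adjusted p = 0.0225), which missed the threshold without engrafted mouse 6 (adjusted p = 0.102), engrafted mouse 8 (0.0531) or host mouse 7 (0.0537). LPS changed Ski in neither population by a called amount. Its log2 change was 0.03 in host (95% interval -0.29 to 0.34) and 0.14 in engrafted cells (95% interval -0.27 to 0.54).

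Skil (NM_011386, chromosome 3, 30993980 to 31021845), whose promoter with 2 SMAD boxes is printed above, did not separate the populations in control mice. Engrafted cells had 151, 106, 118 and 112 CPM and host cells had 138, 96.2, 124 and 101 CPM (mice 5 to 8), a log2 difference of 0.17 (95% interval -0.14 to 0.48). After LPS, host cells were at 116, 111, 104 and 107 CPM, while engrafted cells had 78.3, 95.2, 66.4 and 58.9 CPM (mice 1 to 4). All engrafted LPS libraries were below all other libraries of the gene. Skil fell by 0.73 in engrafted cells (standard error 0.19, edgeR adjusted p = 0.00484), and the host change was -0.07 (95% interval -0.41 to 0.26). The difference between the responses was -0.67 (95% interval -1.16 to -0.17), with an unadjusted p of 0.00985 and an adjusted p of 0.105. The share of Skil among the reads of Ski and Skil was 44.2% ± 5.55 in engrafted control, 29.4% ± 4.26 in engrafted LPS, 33.1% ± 3.34 in host control and 31.9% ± 4.28 in host LPS cells.

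Ordered by their means, the groups fell into few patterns. Tgfbr1 and Tgfbr2 had both control groups on top, followed without overlap by host LPS and then by engrafted LPS cells. Smad3 had host control cells on top and engrafted LPS cells at the bottom, with engrafted control and host LPS cells overlapping between them. For Smad7 and Skil only the engrafted LPS group stood apart from its neighbour in the order. For Tgfb1, Smad2 and Smad4 every group overlapped its neighbour in the order. The ratio of the highest to the lowest group mean was 4.91 for Smad3, 4.40 for Tgfbr2, 3.48 for Smad7 and 3.33 for Tgfbr1, and 1.28 for Smad2.

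A wider list of 57 pathway genes showed where else the pathway differed. In control mice 37 were tested, and 8 were higher and 9 lower in engrafted cells, against 13.6% and 13.7% of all genes. After LPS 6 of 39 were higher and 11 lower, against 9.52% and 7.62% of all genes. The 11 became 7 with a minimum of 10 reads in every library, and 7 without engrafted LPS mouse 1, engrafted LPS mouse 2 or host LPS mouse 3. With LPS, 7 of 37 rose and 13 fell in engrafted cells (19.4% and 19.3% of all genes), and 10 of 38 rose and 14 fell in host cells (19.2% and 20.5%).

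Of 7 genes known to depend on TGFβ in microglia, 6 were lower in engrafted cells in control mice and 5 in LPS mice. Over all genes the shares were 13.7% and 7.62%. The list was drawn up with earlier results of these data known. From the same experiment, the study reports P2ry12, Tmem119, Siglech and Sall1 as reduced in or absent from engrafted cells. P2ry12, Tmem119 and Sall1 are also among the microglia and macrophage markers above. These counts are therefore no independent support. Fcrls was not called in control mice (log2 fold change 0.04, edgeR adjusted p = 0.821). After LPS neither Fcrls (-0.52, adjusted p = 0.0657) nor Tmem119 (-0.13, adjusted p = 0.769) was called. Sall1, a transcription factor of microglial identity, was at 17.3 ± 9.59 CPM in engrafted control and 8.61 ± 4.29 CPM in engrafted LPS cells, against 321 ± 29.8 and 104 ± 21.2 CPM in host cells (SD, n = 4). LPS lowered all 7 in host microglia and 5 of 6 tested in engrafted cells (20.5% and 19.3% of all genes). Gpr34, which encodes a lysophosphatidylserine receptor, fell by 3.53 in host and by 3.88 in engrafted cells on the log2 scale (edgeR adjusted p = 8.37e-10 and 3.91e-09). Olfml3, an extracellular matrix protein gene, fell by 2.52 and 2.45. Siglech, a sialic acid-binding receptor gene, differed by -1.86 between the populations after LPS (adjusted p = 6.49e-06).

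Of 7 genes listed as pathway targets, 4 of 5 tested rose with LPS in host microglia, against 19.2% of all genes. In engrafted cells 3 of 6 rose, against 19.4%. Id1 and Id2 were among those that rose in both populations. Pmepa1, Smad7 and Skil, described here as target or feedback genes, were counted in other lists. With LPS, Pmepa1 changed by -1.31 in host and -2.60 in engrafted cells on the log2 scale, and Smad7 by -0.93 and -1.21. Skil was called lower in engrafted cells only (-0.73). Tgfbi, which encodes a matrix protein, was at 347 ± 72.9 CPM in engrafted control and 59.4 ± 4.93 CPM in host control cells, and at 1486 ± 210.1 and 200.2 ± 23.1 CPM after LPS (SD, n = 4). Its population difference was 2.59 in control and 2.91 in LPS mice on the log2 scale (edgeR adjusted p = 2.91e-12 and 6.98e-09). Tgfbi is also expressed by monocytes and macrophages. The monocyte marker sum was highest in the same engrafted LPS libraries, though Ccr2 was lower there than in engrafted control libraries. The part of monocytes in the Tgfbi levels was not tested. Id2, an inhibitor of basic helix-loop-helix factors that also responds to bone morphogenetic proteins, rose by 2.21 in host microglia (adjusted p = 5.87e-10) and by 1.597 in engrafted cells (adjusted p = 9.25e-07). Id1, a related gene, rose by 2.58 in host (adjusted p = 1.14e-05) and by 1.88 in engrafted cells (adjusted p = 0.000178).

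Among the genes that activate latent TGFβ, Mmp14, a membrane-bound matrix metalloproteinase gene, was higher in engrafted cells by 2.48 in control and 1.77 in LPS mice on the log2 scale. It also rose with LPS in both populations, by 2.54 in host and 1.84 in engrafted cells (edgeR adjusted p = 5.50e-09 and 5.73e-07). Thbs1, which encodes the latent TGFβ activator thrombospondin-1, had 48.2 ± 9.56 CPM in engrafted LPS cells against 9.19 ± 3.19 CPM in engrafted control cells and 3.40 ± 2.90 CPM in host LPS cells (SD, n = 4). The coreceptor gene Eng (endoglin) was lower in engrafted cells, at 101 ± 30.6 against 353 ± 24.8 CPM in control mice, a log2 fold change of -1.76 (adjusted p = 8.97e-09). After LPS the Eng difference was -1.74 (adjusted p = 1.40e-05).

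Of the wider list, 3 of 42 genes passed the interaction test in edgeR, a share near the 5.88% of all genes. Pmepa1, a target gene whose product sequesters SMAD2 and SMAD3, was at 3755 ± 244 CPM in engrafted control and 1572 ± 133 CPM in host control cells. After LPS it was at 634 ± 55.5 and 637 ± 132 CPM (SD, n = 4), so that the populations overlapped. It fell by 2.60 in engrafted and by 1.31 in host cells, and these falls differed by -1.30 (standard error 0.22, adjusted p = 0.000383), the direction seen for Tgfbr2. P2ry12, a purinergic receptor gene of resting microglia, differed the other way (0.87, adjusted p = 0.0123), with a wider fall in host cells. So did Tmem119, a microglial surface protein gene (1.24, adjusted p = 0.00553), which lay outside the naming rule and was chosen after its values were seen. With the mouse as a block, the integrin gene Itgav also passed (-1.27, adjusted p = 0.0322), likewise named after its values were seen, so that 2 genes of the list were lower in the interaction instead of 1. The number was 7 at an unadjusted p below 0.05 and 2 with limma-trend or without host control mouse 7. Shares of all genes were not computed for these settings.

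**Figure D5:**
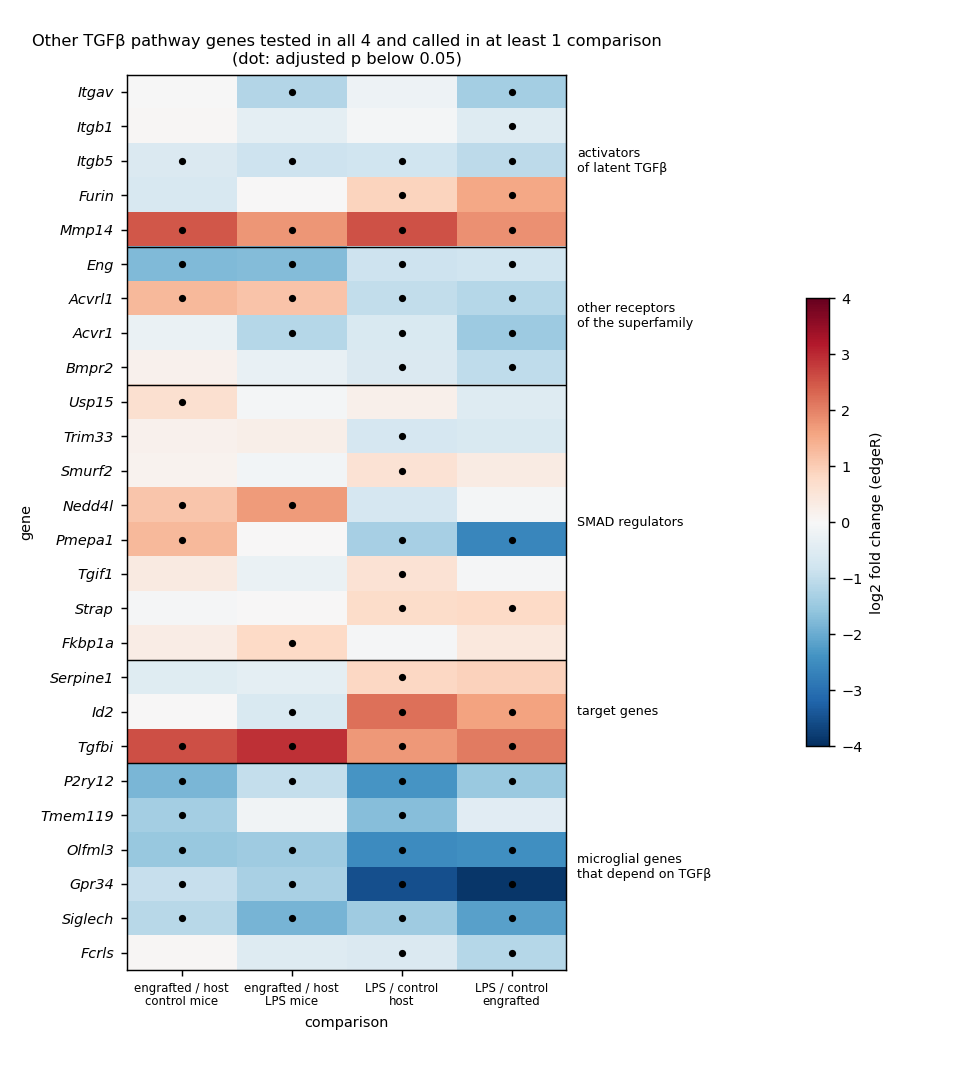
Log2 fold change (color) in the 4 comparisons (columns) of the 26 wider pathway genes that were tested in all 4 and called in at least 1. Dots mark an adjusted p below 0.05 in edgeR. Pmepa1 turns from higher in engrafted control cells to no called difference after LPS, Tgfbi and Mmp14 are called higher in all 4 columns, and Eng, Itgb5, P2ry12, Olfml3, Gpr34 and Siglech are called lower in all 4.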

How the data were processed

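Libraries were 3′ mRNA libraries derived from MARS-seq (oligo-dT). The authors aligned reads to mm9 with HISAT (0.1.5 in the submitters' processing notes), kept unique alignments and counted sense-strand exon reads per gene with HOMER, with 1 RefSeq model per gene. The deposited values are raw counts, and no removal of PCR duplicates is named, so that detection limits cover counting error only. Levels of different genes were not compared, since counts of 3′ libraries are not scaled per length.

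Counts were tested with edgeR 4.0.16 (R 4.3.3; filterByExpr with a minimum count of 10 and total of 15, TMM, quasi-likelihood F test, Benjamini-Hochberg over all genes tested). A call needed an adjusted p below 0.05, and 2-fold marks the threshold of the study. Standard errors were derived from F. CPM are TMM-scaled over 16 libraries. Shares of reads were compared with two-sided exact permutation tests. Alternatives used DESeq2 1.42.0, limma 3.58.1 (log2 CPM, prior count 2), other scalings and filters, all 16 libraries in one fit, unadjusted p, the mouse as a block and leaving out each library.

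Both populations of a mouse came from one brain, which is the source of the pairing. Same-mouse deviations correlated at -0.01 to 0.27 (over 0.1 in 4 of 8 mice). Named pathway genes were up to 3 per direction with the largest change among those called and averaging 20 CPM or more, and the 5 genes most like the member with the largest control difference. Members, lists and tests were chosen with earlier results of these data known. The scripts were tested on simulated data.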

Additional observations from a re-analysis of the deposited data

Results flagged for a closer look

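The response of Tgfbr2 to LPS differed between the populations by a test of the difference itself, by -1.20 on the log2 scale (edgeR interaction, adjusted p = 0.00138), with every engrafted LPS library below every host LPS library.

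Over 56 groups of 4 libraries (10 genes and 4 shares in 4 groups), 3 had a library far from the others by Dixon's criterion. Chance gives about 1 in 20, and the number found was near that rate. Both Smad3 flags rest on the same reads of the same library. Smad3 in host LPS mouse 4 was at 45.9 CPM, above the 32.9 to 35.0 CPM of the other 3. The share of Smad3 among Smad2 and Smad3 reads in the same library was 60.0%, against 40.2% to 43.5%. The share of Tgfbr2 among receptor reads in host LPS mouse 2 was 15.996%, against 20.3% to 20.8%.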

How the results depend on the processing

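Counts of members called lower in engrafted cells were the least stable. In control mice (3 called) they were 5 with library totals as the scale, 5 without the filter, 5 at an unadjusted p, and 1 to 5 when 1 library was left out, with 1 called without engrafted control mouse 6 or 8 and 5 without host control mouse 8. In LPS mice (2 called) they were 5 with library totals, 6 at an unadjusted p, 5 with all 16 libraries in one fit, and 1 to 3 when 1 library was left out, with 1 called without host LPS mouse 4. In the interaction, members called lower numbered 3 and higher 1 at an unadjusted p. When 1 library was left out, 0 to 1 were called higher (Tgfb1, without engrafted LPS mouse 4). Shares of all genes at an unadjusted p were not computed. Library totals called 1322 of all 8042 genes lower in engrafted cells of control mice, against 1102 with TMM. Scaling by library totals moved the median of all genes by -0.15 on the log2 scale between the populations of LPS mice, where the share of calls that were higher went from 55.5% to 40.2%. It moved the median of no other comparison by more than 0.08. The share of calls that were higher still went from 49.9% to 40.8% between the populations of control mice. It went from 50.1% to 43.7% in engrafted cells with LPS and from 50.6% to 42.5% in the interaction. In host cells with LPS it was 48.4% and 48.6%. With library totals, no direction of a called member changed. The counts of members that changed with LPS stayed within 1.5 times under every alternative. Apart from the construction of these alternatives, the cause of such changes was not tested.

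Over 894 refits of single members, 829 kept direction and call, 20 lost a call, 30 gained one and 15 changed sign, all for changes that were not called. Smad2 in engrafted cells with LPS was -0.015 with limma-trend and -0.086 to 0.22 when 1 library was left out. Smad2 in host cells with LPS was 0.0063 without the filter and -0.10 to 0.11 when 1 library was left out. The Nrros interaction was -0.036 with library totals and -0.043 to 0.13 when 1 library was left out. Leaving out 1 library also gave -0.034 to 0.15 for Ski and -0.16 to 0.027 for Skil in host cells with LPS, and -0.062 to 0.23 for Smad2 and -0.018 to 0.31 for Ski in the interaction. The mouse as a block changed 1 of 30 member calls, that of Tgfb1 in control mice (adjusted p = 0.0280). No paired fit was possible for LPS against control, which are different mice. Depth limits Smad2 and Smad3, with 7 to 8 reads in their lowest libraries.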
